A study of Mus musculus with 14 samples.

Results

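The 7 genes described here were read in 14 mouse heart libraries, 6 of them being genes of the fat cell (*Adipoq*, *Cfd*, *Retn*, *Plin1*, *Cidec* and *Car3*) and the last *Cdo1*, an enzyme of cysteine breakdown. They were taken from 54532 gene identifiers by symbol, and all 7 were matched by GENCODE M21 to an identifier in every library. The genes were chosen because their levels were seen to vary between these libraries, so their levels and fold changes are given as a description and without a test. The libraries labelled YG8-800 (n = 4) are from a line in which both copies of the targeted mouse gene carry a null allele and a human transgene of the same gene, with an expanded GAA repeat, stands in for them. They are compared with the libraries labelled WT, wild-type mice kept with that line (n = 4). KIKO-700 hearts carry 1 deleted copy of the mouse gene and 1 copy with a GAA expansion in its first intron, and those of males (n = 3) are compared with those of females (n = 3). All mice are C57BL/6 of age 180 days after birth by the labels, and the allele of each line is carried in every tissue. The methods of the paper name an older age. Wild-type hearts of the KIKO-700 cohort were not analysed here, so genotype, cohort and line cannot be told apart across the 2 experiments.

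Hearts were snap-frozen, and the labels and methods say nothing of fat left on or cut from them. RNA was read from the 3′ end of transcripts in QuantSeq libraries, and levels are CPM, the count of a gene scaled to a common library total, after TMM scaling. Total counts ranged from 7142416 to 11650840 in the YG8-800 libraries and from 5226233 to 10572032 in the WT libraries, and from 7291596 to 10873728 in KIKO-700 males and 7502655 to 8400953 in KIKO-700 females. The summed level of 7 markers of ventricular cardiomyocytes lay between 11348 and 31841 CPM in every group, and all 7 were counted in every library. A check of the YG8-800 experiment on the gene it targets went against its labels, so YG8-800 and WT are used below as names of labelled libraries, and a value lower in YG8-800 means lower under that label, whatever the genotype. The labels give no sex for that experiment, and *Xist*, the RNA of the inactive X chromosome of females, stood at 52.6 and 50.6 CPM in YG8-800 1 and 3 and between 38.0 and 50.9 CPM in WT 1, 2 and 4, while YG8-800 2 and 4 and WT 3 held at most 0.327 CPM.

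Adipocytes store triglyceride in a single large droplet coated by perilipin, release fatty acids from it by lipolysis, and secrete proteins such as adiponectin, adipsin, leptin and resistin. Fat lies on the surface of the heart and around its vessels, and cardiomyocytes themselves take up, bind and burn fatty acids. Several genes of fat handling are therefore used by both cell types, whereas the secreted adipocyte proteins and *Plin1* mark the fat cell. *Cdo1* turns cysteine into cysteine sulfinate, the first step towards taurine and sulfate, and is active in liver and in fat.

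Promoter windows of 300 bases were read for 5 of the 7 genes from RefSeq tables of GRCm38.p6, from 250 bases before the start site to 50 after it. They are shown because these genes were high together in WT 1 and WT 2, and shared control of the genes was not tested. *Cidec* has 2 windows, and the one printed starts 996 bases inside the GENCODE start of the gene. The 4 printed are Adipoq at chr16:23146286-23146585 on the plus strand, Plin1 at chr7:79732727-79733026 on the minus strand, Cidec at chr6:113434715-113435014 on the minus strand, and Cfd at chr10:79890603-79890902 on the plus strand. Each runs 5′ to 3′ along the gene, with the start site at base 251 and any match to a motif in capitals.
Adipoq: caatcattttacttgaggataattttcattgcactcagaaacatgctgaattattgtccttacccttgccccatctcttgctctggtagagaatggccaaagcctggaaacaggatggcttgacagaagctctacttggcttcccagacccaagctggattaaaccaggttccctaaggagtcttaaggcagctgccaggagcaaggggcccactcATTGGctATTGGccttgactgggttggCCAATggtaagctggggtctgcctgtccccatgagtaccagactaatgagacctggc
Plin1: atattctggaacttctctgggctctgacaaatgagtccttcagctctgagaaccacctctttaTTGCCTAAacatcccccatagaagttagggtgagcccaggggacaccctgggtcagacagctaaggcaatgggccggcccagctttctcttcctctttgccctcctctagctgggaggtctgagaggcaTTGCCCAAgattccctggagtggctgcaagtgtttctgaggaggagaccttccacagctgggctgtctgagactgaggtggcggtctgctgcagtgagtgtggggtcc
Cidec: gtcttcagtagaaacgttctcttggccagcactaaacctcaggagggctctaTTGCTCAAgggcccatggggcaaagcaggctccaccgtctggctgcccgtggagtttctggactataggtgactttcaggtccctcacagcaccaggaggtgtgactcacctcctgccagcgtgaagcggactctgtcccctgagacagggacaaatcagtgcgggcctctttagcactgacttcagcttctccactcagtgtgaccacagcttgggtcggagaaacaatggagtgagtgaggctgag
Cfd: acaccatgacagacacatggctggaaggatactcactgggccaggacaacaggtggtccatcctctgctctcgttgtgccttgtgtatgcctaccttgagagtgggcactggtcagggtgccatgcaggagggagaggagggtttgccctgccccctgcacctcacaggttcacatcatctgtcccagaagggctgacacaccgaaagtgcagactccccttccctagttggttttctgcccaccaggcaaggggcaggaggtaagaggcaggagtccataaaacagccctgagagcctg
The windows were searched on both strands for 6 motifs. The TATA box was searched as TATAAA, and the CAAT box of many promoters as the letters CCAAT. The element bound by C/EBP proteins was searched as TTGCNNAA, and that of SREBP, a regulator of lipid synthesis, as TCACNCCAC. The GC box was searched as GGGCGG, and the paired element of PPAR and RXR by its consensus. No matches of different motifs overlapped in these windows. C/EBP and PPAR proteins are transcription factors of the adipocyte. The C/EBP letters were found at 2 places in the *Plin1* window, at 187 and 58 bases before the start site, and at 1 place in the *Cidec* window, 198 bases before it, while 10.8% of all 32851 promoter windows hold them. The start site of the *Plin1* window is 127 bases inside the GENCODE start. The *Plin1* match at 58 bases and the *Cidec* match thus lie within the genes as GENCODE gives them. *Adipoq* held 3 CAAT boxes within 34 bases of the start site, a motif in 37.4% of all windows. No match was found in the windows of *Cfd* and *Retn* or in the other window of *Cidec*. The letters of the PPAR element, in 0.381% of all windows, were not met in these windows.

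*Adipoq* (ENSMUSG00000022878, chromosome 16 of GRCm38 from 23146536 to 23158028) encodes adiponectin, a hormone made by adipocytes. It stood at 1.10, 1.11, 0.880 and 2.18 CPM in libraries 1 to 4 labelled YG8-800, against 8.77, 34.4, 0.434 and 3.97 CPM in libraries 1 to 4 labelled WT. The YG8-800 libraries lay close together, while WT 2 was the highest and WT 3 the lowest of all 14 libraries, so the groups overlapped. *Adipoq* stood at 0.720, 2.10 and 2.90 CPM in KIKO-700 males 1 to 3, against 4.52, 3.66 and 4.19 CPM in KIKO-700 females 1 to 3. Every male was below every female. The counts behind these levels are few, 6 in male 1 and 38 in female 1, and the 95% Poisson interval of male 1, for counting error only, ran from 0.264 to 1.57 CPM.

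*Cfd* (ENSMUSG00000061780, chromosome 10 from 79890853 to 79892655) encodes adipsin, the complement factor D that fat cells release into blood. It stood at 5.50, 5.79, 4.99 and 11.01 CPM in libraries 1 to 4 labelled YG8-800, against 80.7, 51.8, 1.30 and 19.4 CPM in libraries 1 to 4 labelled WT. Apart from WT 3, which was below every other library, each WT library was above each YG8-800 library. In KIKO-700 it stood at 8.88, 4.20 and 6.36 CPM in males 1 to 3, against 28.6, 19.2 and 24.0 CPM in females 1 to 3, without overlap.

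*Retn* (ENSMUSG00000012705, chromosome 8 from 3655770 to 3660110) encodes resistin, which adipocytes secrete in mice. It was counted 0, 0, 3 and 2 times in libraries 1 to 4 labelled YG8-800, against 56, 69, 2 and 13 times in libraries 1 to 4 labelled WT. These WT counts correspond to 5.92, 5.49, 0.434 and 1.91 CPM, and WT 3 lay within the YG8-800 range. KIKO-700 males held 2, 0 and 1 counts, against 6, 10 and 13 counts in KIKO-700 females, without overlap. For the count of 0 in YG8-800 1, the 95% Poisson interval ran up to 0.369 CPM, for counting error only. Over the whole groups, the ratio of YG8-800 to WT was 0.0350 (95% interval 0.0112 to 0.0836, counting error only), and that of males to females in KIKO-700 was 0.0982 (0.0192 to 0.317).

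*Plin1* (ENSMUSG00000030546, chromosome 7 from 79720218 to 79732903) encodes perilipin 1, which coats the fat droplet of adipocytes and guards it from lipases. It stood at 1.5, 0.246, 0.147 and 1.31 CPM in libraries 1 to 4 labelled YG8-800, against 2.96, 5.89, 0 and 1.91 CPM in libraries 1 to 4 labelled WT. Its 0 counts in WT 3, the shallowest library, allow up to 0.651 CPM. In KIKO-700 it stood at 0.840, 0.525 and 1.12 CPM in males 1 to 3, against 2.86, 2.55 and 4.19 CPM in females 1 to 3. The sexes did not overlap, whereas the YG8-800 and WT libraries did. *Cidec* (ENSMUSG00000030278, chromosome 6 from 113424634 to 113435760), whose protein fuses droplets into larger ones, stood at 0.80, 1.60, 0.440 and 0.436 CPM in libraries 1 to 4 labelled YG8-800, against 4.33, 9.16, 0.217 and 2.5 CPM in libraries 1 to 4 labelled WT. It stood at 0.840, 0.525 and 1.22 CPM in KIKO-700 males, against 2.5, 1.88 and 3.56 CPM in KIKO-700 females. As for *Plin1*, WT 3 alone brought the groups of the YG8-800 experiment to overlap.

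*Car3* (ENSMUSG00000027559, chromosome 3 from 14863512 to 14872523) encodes carbonic anhydrase III, an abundant cytosolic protein of fat and of slow skeletal muscle that is also made in liver. It stood at 5.40, 11.1, 6.60 and 22.7 CPM in libraries 1 to 4 labelled YG8-800, against 79.4, 137, 7.81 and 22.7 CPM in libraries 1 to 4 labelled WT. WT 1 and WT 2 stood far above the rest, and WT 4 equalled YG8-800 4. In KIKO-700 it stood at 9.24, 9.58 and 13.4 CPM in males 1 to 3, against 24.4, 31.6 and 28.3 CPM in females 1 to 3. No male reached a female.

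*Cdo1* (ENSMUSG00000033022, chromosome 18 from 46713193 to 46728395) encodes cysteine dioxygenase. It stood at 1.40, 3.70, 2.35 and 3.49 CPM in libraries 1 to 4 labelled YG8-800, against 15.5, 18.5, 3.69 and 5.30 CPM in libraries 1 to 4 labelled WT. WT 3 lay beside YG8-800 2, so that the groups overlapped by a single pair of libraries. In KIKO-700 it stood at 3.00, 5.12 and 2.53 CPM in males 1 to 3, against 6.19, 6.54 and 6.86 CPM in females 1 to 3. WT 1 and WT 2, the highest libraries for the adipocyte genes, were also the highest for *Cdo1*.

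**Figure D1:**
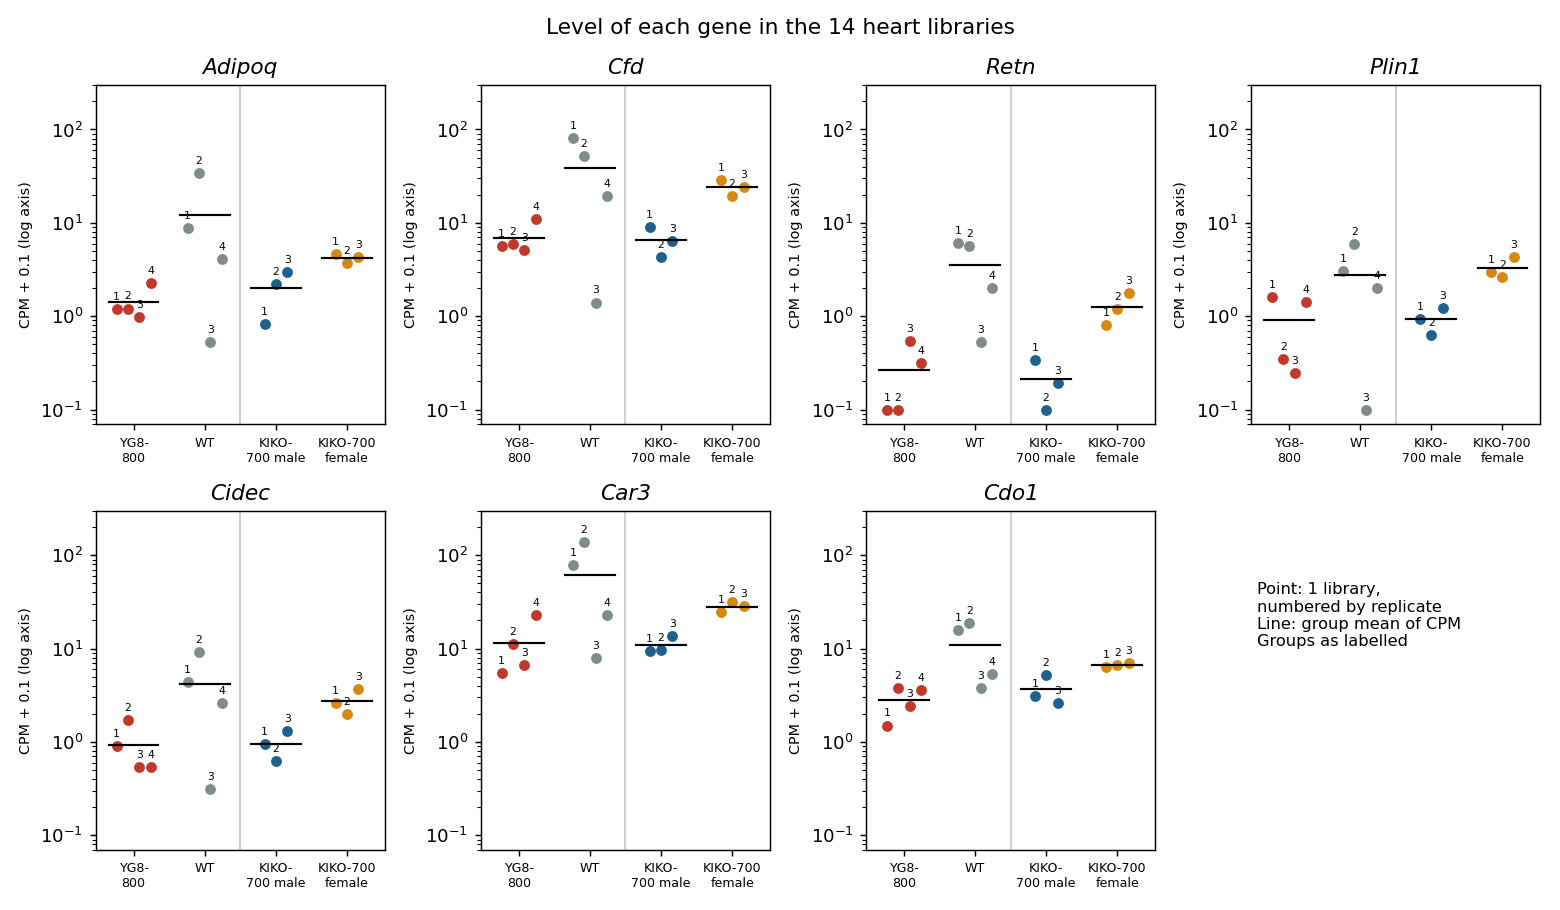
CPM plus 0.1 on a log axis for each of the 7 genes, with 1 numbered point per library and a line at the mean CPM of each labelled group. WT 1 and WT 2 stand highest and WT 3 low in most panels, and the KIKO-700 males lie below the females, as *Cfd* shows at 4.20 to 8.88 CPM in males against 19.2 to 28.6 CPM in females.

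Set in order, the group means ran from WT through KIKO-700 females to the 2 low groups, YG8-800 and KIKO-700 males, for every gene but *Plin1*, where KIKO-700 females came first at 3.20 ± 0.873 CPM (SD, n = 3) and WT followed at 2.69 ± 2.46 CPM (SD, n = 4). WT and KIKO-700 females overlapped in range for all 7 genes, and so did YG8-800 and KIKO-700 males. KIKO-700 females lay above every library of the next lower group for the other 6 genes. In bulk RNA, fewer fat cells and less RNA per fat cell cannot be told apart, and neither can differences between the cohorts and those between the lines.

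Summed over the 6 adipocyte genes, the level was 21.4 ± 11.3 CPM (SD, n = 4) over libraries with the label YG8-800 and 122 ± 109 CPM (SD, n = 4) over libraries with the label WT. It was 20.9 ± 4.07 CPM (SD, n = 3) in KIKO-700 males and 63.1 ± 3.02 CPM (SD, n = 3) in KIKO-700 females. The WT libraries held both the lowest sum, 10.2 CPM in WT 3, and the highest, 244 CPM in WT 2, and their SD was nearly as large as their mean. These sums are a small part of the RNA read, 0.0290% of the counts of WT 2 and 0.000899% of those of WT 3.

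The first comparison sets the libraries labelled YG8-800 against those labelled WT, and since the check of the targeted gene went against these labels, its direction cannot be read as that of the mutation. On the log2 scale of the fit across all genes (edgeR), YG8-800 against WT was −3.13 (SE 1.03) for *Adipoq*, −2.42 (SE 0.92) for *Cfd* and −1.70 (SE 0.85) for *Plin1*. It was −2.30 (SE 0.74) for *Cidec*, −2.37 (SE 0.88) for *Car3* and −1.95 (SE 0.49) for *Cdo1*. The estimates are all below 0 and their errors are wide, as the spread of the WT libraries makes them. *Retn* did not pass the filter on low counts and was kept in the fit in spite of it. Its estimate of −4.39 (SE 0.90) rests on 5 counts in YG8-800 against 140 in WT. The median over the 6 adipocyte genes was −2.40, beside a median of −0.01 over all 11875 genes tested.

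In that fit no gene passed an adjusted p of 0.05, while 357 were lower (3.01%) and 361 higher (3.04%) at an unadjusted p under 0.05. DESeq2 called 7 genes and limma-voom 0, and leaving out WT 4 gave 146 in edgeR. Of the genes at an unadjusted p under 0.05, 49.7% were lower after TMM scaling and 79.8% with library size alone, which moved the median of all genes to −0.21. The YG8-800 and WT libraries overlapped for each of the 7 genes, and 2.42% of all genes tested were lower and 1.47% higher in YG8-800 without overlap. The difference rests on WT 1 and WT 2. Without both of them, an alternative added after seeing the data, the median over the 6 genes was −0.72, with −0.80 for *Adipoq*, −0.43 for *Car3* and −0.82 for *Cidec*, and *Cdo1* stood at −0.74.

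The second comparison asks how the genes differ between the sexes within KIKO-700. Males against females stood at −1.08 (SE 0.37) for *Adipoq*, −1.88 (SE 0.24) for *Cfd* and −1.89 (SE 0.38) for *Plin1*. The value was −1.55 (SE 0.40) for *Cidec*, −1.38 (SE 0.19) for *Car3* and −0.91 (SE 0.27) for *Cdo1*. These differences are smaller than those of YG8-800 against WT for 5 of these 6 genes, with *Plin1* the exception, and their errors are narrower. *Retn*, under the filter here too and kept in the fit in the same way, stood at −3.20 (SE 0.74), from 3 counts in males against 29 in females. The median over the 6 adipocyte genes was −1.72, beside 0.01 over all 11801 genes tested. Whether the 2 comparisons differ was not tested.

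None of the 7 genes overlapped between the sexes, and 6.77% of all genes tested were lower and 5.82% higher in males without overlap. At an adjusted p under 0.05, 5 genes were lower in males (0.0424%) and 3 higher (0.0254%). *Cfd* and *Car3* are among the 5, but the genes were chosen on these values and nothing is read from it. The other 3 that fell in males were *Xist*, *Alb* and *Fgb*, and the 3 that rose were the Y-linked *Uty*, *Ddx3y* and *Eif2s3y*. The count of 8 was 864 without KIKO-700 male 1, 4 without male 2, and 4, 5 and 4 without females 1, 2 and 3.

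**Figure D2:**
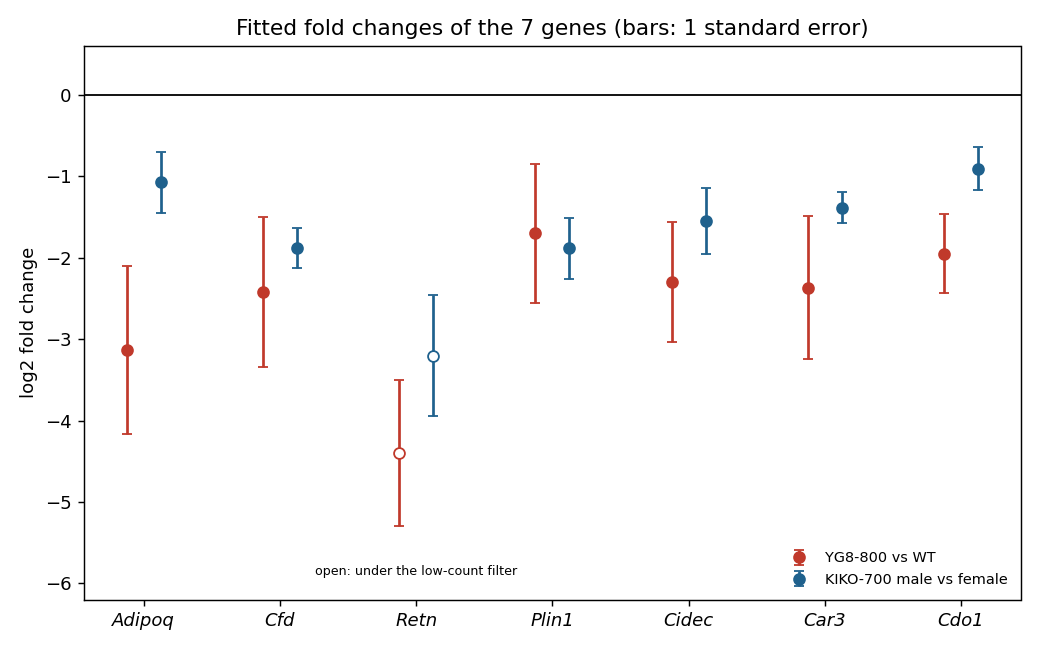
Log2 fold change of each of the 7 genes with 1 SE on either side, for libraries labelled YG8-800 against those labelled WT and KIKO-700 males against females. Every point lies below 0, from −4.39 for *Retn* in YG8-800 to −0.91 for *Cdo1* in KIKO-700, and open points mark *Retn*, which is under the filter on low counts.

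*Alb* and *Fgb*, named after their values were seen, encode albumin and a chain of fibrinogen, plasma proteins made by the liver. *Alb* stood at 0.120, 0.525 and 0.842 CPM in KIKO-700 males 1 to 3, against 5.48, 5.32 and 11.4 CPM in KIKO-700 females 1 to 3. Its log2 fold change was −3.79 (SE 0.48, edgeR adjusted p = 0.00621). *Fgb* stood at 0.120, 0 and 0.0935 CPM in males, against 1.55, 1.44 and 1.91 CPM in females, with −4.20 (SE 0.66, edgeR adjusted p = 0.0322). Both genes followed the adipocyte genes between the sexes of KIKO-700, but not in the other experiment, where *Alb* reached no more than 0.300 CPM in YG8-800 and 0.0796 CPM in WT, and *Fgb* was at 0 in all 8 libraries. Liver-made transcripts and the fat genes were therefore both higher in the KIKO-700 females, and their part in the difference of the fat genes was not tested.

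If all 6 adipocyte genes came in one fixed proportion, their ratios would be the same in every library. The ratio of *Cfd* to *Adipoq* counts was 9.20 in WT 1 (95% exact interval 7.33 to 11.7, counting error only) and 1.51 in WT 2 (1.33 to 1.71). The intervals of these 2 libraries, which held the most of the 6 genes, lie far apart. The 4 YG8-800 libraries lay between 5.0 and 5.67, and the KIKO-700 females between 5.24 and 6.32. KIKO-700 male 1 stood at 12.3 (5.41 to 34.7) on 6 *Adipoq* counts, whereas male 2 stood at 2.00 (1.07 to 3.90) and male 3 at 2.19 (1.41 to 3.47). Over the 14 libraries the ratio ran from 1.51 to 12.3, with a median of 5.14.

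*Car3* did not keep one proportion to *Cfd* either. The ratio of *Car3* to *Cfd* was 0.983 (0.888 to 1.09) in WT 1 and 2.65 (2.42 to 2.90) in WT 2, and the median over all 14 libraries was 1.49. WT 3, on 36 *Car3* and 6 *Cfd* counts, had the highest ratio at 6.00. The ratio of *Cdo1* to *Car3* lay between 0.135 in WT 2 and 0.534 in KIKO-700 male 2, with a median of 0.248. Its interval was 0.117 to 0.155 in WT 2 and 0.353 to 0.799 in KIKO-700 male 2. *Cdo1* was therefore the smallest relative to *Car3* in the library with the most *Car3*.

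**Figure D3:**
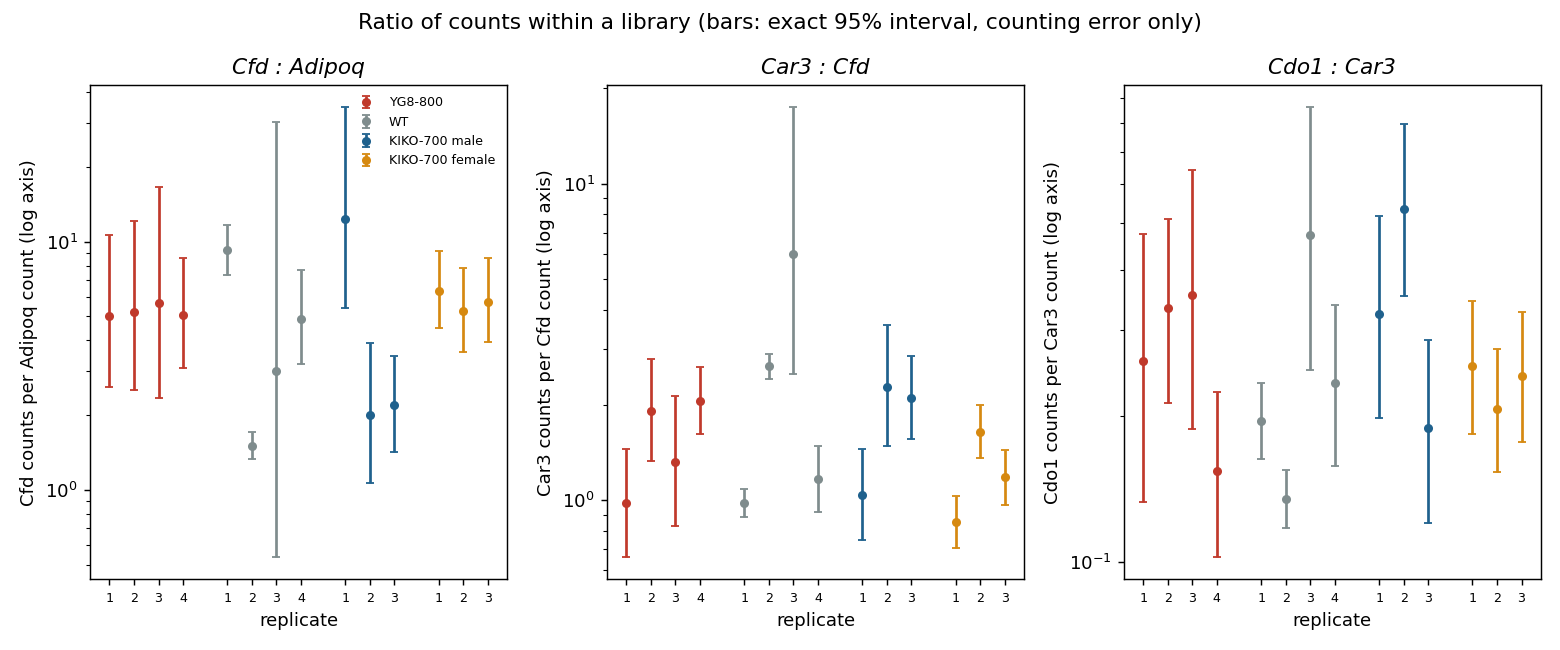
Ratios of counts in each library for *Cfd* to *Adipoq*, *Car3* to *Cfd* and *Cdo1* to *Car3*, with exact 95% intervals for counting error, on a log axis. WT 1 and WT 2 lie apart for *Cfd* to *Adipoq*, at 9.20 and 1.51.

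Across the 14 libraries, with the mean of each labelled group removed, each adipocyte gene was compared on the log2 scale with the mean of the other 5. Points share the library and its depth, and no p is given. Pearson's r was 0.93 for *Cfd*, 0.90 for *Adipoq*, 0.90 for *Car3*, 0.87 for *Plin1*, 0.85 for *Cidec* and 0.78 for *Retn* (n = 14). Spearman's rho was lower for all, 0.75 for *Cfd* and 0.48 for *Retn*. Without the 2 libraries farthest from the median of the mean, r stood at 0.82 for *Cfd* and 0.70 for *Car3*, but at 0.52 for *Adipoq*, 0.45 for *Plin1*, 0.37 for *Retn* and 0.27 for *Cidec*. The likeness of these last 4 genes thus rests largely on those libraries.

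*Cdo1* had an r of 0.76 and a rho of 0.54 to the mean of the 6 adipocyte genes, and 0.47 without the 2 farthest libraries (n = 14). Its closest partner among the 6 was *Car3*, with an r of 0.87 and a rho of 0.79. In the 8 libraries of the YG8-800 experiment alone r was 0.85, and in the 6 KIKO-700 hearts alone −0.72. The SD of the mean of the 6 was 1.99 in WT but 0.31 in KIKO-700 males and 0.21 in KIKO-700 females on the log2 scale, so the KIKO-700 value rests on a narrow range.

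Among 12471 genes with a mean of at least 1 CPM, 6 genes other than the 7 reached an r of 0.9 with the mean of the 6, and the median r was 0.04. They were *Gm49749* (0.95), *Ddx31* (0.94), *Hcfc1* (0.92), *Stc1* (0.91), *Frat2* (0.90) and *Fgd6* (0.90). *Stc1* encodes the secreted protein stanniocalcin, *Hcfc1* a co-regulator of transcription, and *Ddx31* a helicase. They were followed by *Rnf19a*, *S1pr2*, *Ahr*, *Nup155*, *Mrtfa*, *Nploc4*, *Lmbr1*, *Prkab2* and *Panx1*, down to an r of 0.88. None of these 15 is on the lists of adipocyte genes. The lowest values were −0.89 for *2310033P09Rik*, *Psenen* and *Mrpl40* and −0.88 for *Rbx1* and *Bola1*. The order depends on the setting, since 1 of the 15 was among the top 15 without removing group means, 5 in the YG8-800 experiment alone and 0 in the KIKO-700 hearts alone.

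Among the genes with the pattern most like that of *Cdo1* were *Atp6v0a2* (r 0.93), *Ubqln1* (0.90), *Ide* (0.90), *Dip2c* (0.89), *Pdzd8* (0.89), *Crat* (0.89), *Lamb1* (0.88) and *Abat* (0.87), each over 14 libraries. *Crat* encodes carnitine acetyltransferase and *Abat* the enzyme that breaks down GABA. None of these is among the 15 most like the adipocyte genes.

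Attached fat was looked at through genes that were not members. Of 75 other genes used by adipocytes, 52 could be tested in YG8-800 against WT. None passed the adjusted threshold in edgeR, and at an unadjusted p under 0.05 there were 8 lower and 1 higher, beside 3.01% and 3.04% of all genes. Their median was −0.15, with 35 below 0. In KIKO-700 males against females, 58 were tested, none passed the adjusted threshold, and 3 were lower and 1 higher unadjusted, beside 3.75% and 3.39%. Their median was −0.03, with 34 below 0. Leaving out WT 1 left 4 past the unadjusted threshold in YG8-800 and leaving out WT 4 left 17, whereas leaving out KIKO-700 male 1 left 18 in the sex comparison and leaving out male 3 left 11. Many genes of this list are also used by the heart, since 23 of the 75 stood at 10 CPM or more in WT 3, the library with the least of the 6 adipocyte genes.

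The genes of fatty acid and triglyceride synthesis had the lowest median of the sublists in YG8-800 against WT, −0.57 over 13 genes. Of these, 5 were lower at an unadjusted p under 0.05, beside 3.01% of all genes. *Scd1*, the stearoyl-CoA desaturase, stood at 6.70, 11.6, 5.72 and 9.48 CPM in libraries 1 to 4 labelled YG8-800, against 202, 99.8, 6.29 and 21.2 CPM in libraries 1 to 4 labelled WT. *Fasn*, the fatty acid synthase, stood at 6.50, 3.20, 8.36 and 6.65 CPM in YG8-800, against 138, 44.3, 3.47 and 13.5 CPM in WT. Both had WT 1 and WT 2 on top of the 8 libraries, as in the adipocyte genes. WT 3 lay within the YG8-800 range for both, as it did for *Retn* and *Car3*. For *Adipoq*, *Cfd*, *Plin1* and *Cidec*, WT 3 lay below every YG8-800 library. WT 1 was the highest library for both, as it was for *Cfd* and *Retn*, while WT 2 was the highest for the other 4 adipocyte genes. Their log2 fold changes were −3.22 (SE 0.96) for *Scd1* and −2.94 (SE 1.00) for *Fasn*, with edgeR adjusted p values of 0.786 and 0.787. *Acly*, ATP citrate lyase, stood at −0.96 (SE 0.36), and *Pcx*, pyruvate carboxylase, at −1.33 (SE 0.53). In KIKO-700, *Fasn* stood at 19.2, 13.7 and 13.4 CPM in males against 21.4, 17.3 and 58.3 CPM in females, with −1.07 (SE 0.43, edgeR adjusted p = 0.665).

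The genes of uptake and of droplets had medians near 0. *Fabp4*, the fatty acid binding protein of adipocytes and of endothelial cells, stood at 712, 351, 282 and 470 CPM in libraries 1 to 4 labelled YG8-800, against 188, 673, 529 and 465 CPM in libraries 1 to 4 labelled WT, with a log2 fold change of −0.01 (SE 0.39). It stood at 299, 335 and 452 CPM in KIKO-700 males, against 408, 388 and 354 CPM in KIKO-700 females, with −0.09 (SE 0.18). WT 1, rich in *Cfd*, had the lowest *Fabp4* of all 14 libraries. *Pparg*, the main transcription factor of the adipocyte, stood at 0.28 (SE 0.53) in YG8-800 against WT and 0.31 (SE 0.59) in KIKO-700 males against females. The medians over the 13 droplet and lipolysis genes tested were 0.02 in both comparisons, and those over the 8 uptake genes −0.05 in YG8-800 and 0.13 in KIKO-700. *Fabp5*, a fatty acid binding protein of many tissues, stood at 0.88 (SE 0.28) in YG8-800 against WT and at −0.48 (SE 0.18) in KIKO-700 males against females. *Aqp7*, the glycerol channel of fat cells, stood at 3.60, 10.9 and 5.71 CPM in KIKO-700 males, against 2.5, 1.66 and 2.67 CPM in females, with 1.55 (SE 0.38, edgeR adjusted p = 0.361). Among the transcription factors, *Cebpb* stood at −1.02 (SE 0.35) and *Ebf2* at −0.70 (SE 0.29) in YG8-800 against WT, and *Adh1*, an alcohol dehydrogenase of fat and liver, at −0.82 (SE 0.25).

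**Figure D4:**
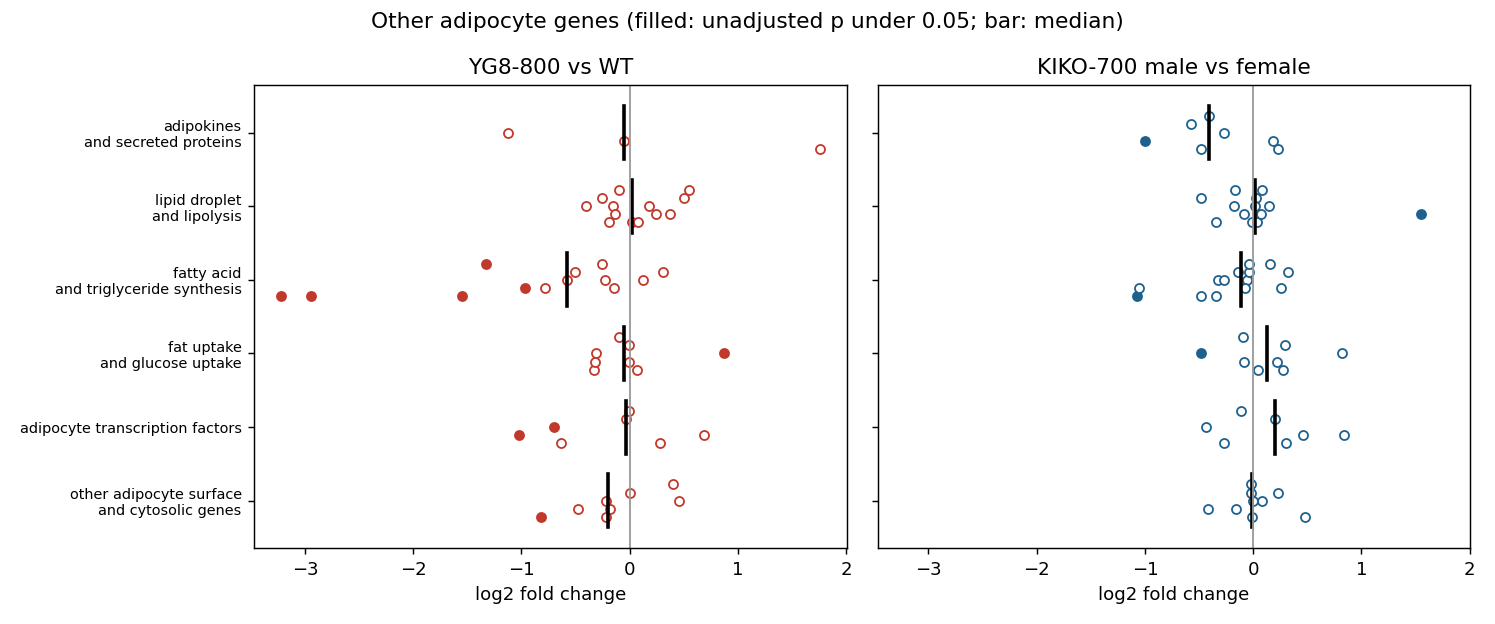
Log2 fold changes of the other adipocyte genes by sublist, in YG8-800 against WT and KIKO-700 males against females, with a bar at the median and filled points at an unadjusted p under 0.05. The synthesis genes reach lowest in YG8-800, with *Scd1* at −3.22 and *Fasn* at −2.94.

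Among secreted proteins, *Lep*, the hormone leptin made by white fat, was counted 0 times in each YG8-800 library, against 7, 6, 1 and 2 times in WT 1 to 4. Over the whole groups, 0 counts against 16, the ratio of YG8-800 to WT was 0 (95% interval 0 to 0.254, counting error only). Most of the WT counts were in WT 1 and WT 2. *Lep* does not speak for the list of 11 secreted proteins, of which 3 others were tested in YG8-800 against WT, with a median of −0.05. These were *Hp* at −1.12 (SE 0.62), *Apln* at −0.05 (SE 0.31) and *Angptl4* at 1.76 (SE 0.98). In KIKO-700 *Lep* was counted 0, 3 and 1 times in males, against 1, 0 and 1 times in females. Counts this low leave a difference between the sexes undetectable. *Rbp4*, the retinol carrier of plasma, stood at −0.996 (SE 0.38) in KIKO-700 males against females, with an edgeR adjusted p of 0.633.

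*Ucp1*, the uncoupling protein that marks brown fat, stood at 0, 1.97, 0 and 2.51 CPM in libraries 1 to 4 labelled YG8-800, against 0.106, 0.478, 0 and 0 CPM in libraries 1 to 4 labelled WT. In KIKO-700 it stood at 0.120, 1.18 and 0.374 CPM in males, against 3.45, 1.77 and 2.41 CPM in females, with a log2 fold change of −2.23 (SE 0.54, edgeR adjusted p = 0.356). Of 6 brown adipocyte genes listed, 3 were tested there, with a median of 0.13. Besides *Ucp1* these were *Cidea* at 0.13 (SE 0.15) and *Dio2* at 0.40 (SE 0.45), both above 0, so *Ucp1* does not speak for the list. WT 1 and WT 2, with the most of the white fat genes, had little *Ucp1*, while YG8-800 4, with the most of them in its group, had the highest *Ucp1* of the 8. A pair of genes that set WT 2 apart was named after their values were seen. *Pck1*, the enzyme that makes glycerol for triglyceride in fat, stood at 17.6 CPM in WT 2 and 0.211 CPM in WT 1. *Adrb3*, the adrenergic receptor of adipocytes, stood at 3.26 CPM in WT 2 and 0.106 CPM in WT 1.

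*Cdo1* was set beside 20 genes of cysteine and taurine. In YG8-800 against WT, 15 were tested, none passed either threshold, and their median was −0.05. In KIKO-700 males against females, 16 were tested, none passed the adjusted threshold, and the median was 0.11. At an unadjusted p under 0.05, 1 was higher, beside 3.39% of all genes. That gene, *Mpst*, a sulfurtransferase that acts on a product of cysteine, stood at 15.8, 14.7 and 10.8 CPM in males, against 10.5, 6.31 and 6.61 CPM in females, with 0.81 (SE 0.23, edgeR adjusted p = 0.479). *Csad*, the next enzyme towards taurine, averaged 6.66 ± 0.277 CPM (SD, n = 4) in YG8-800 and 7.94 ± 3.61 CPM (SD, n = 4) in WT. *Csad*, named here after its values were seen, had an r of 0.88 to the mean of the 6 adipocyte genes. *Ado*, the dioxygenase that acts on cysteamine, was also named after its values were seen and stood at −0.05 (SE 0.27) in YG8-800 and −0.07 (SE 0.19) in KIKO-700.

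Of 29 relatives of the 7 genes, such as other perilipins, carbonic anhydrases and resistin-like proteins, 21 were tested in YG8-800 against WT. Only *Car5b*, a mitochondrial carbonic anhydrase, passed an unadjusted p under 0.05, where 3.01% of all genes were lower and 3.04% higher. It was lower, with −1.63 (SE 0.49, edgeR adjusted p = 0.786). In KIKO-700, 20 were tested, and only *Retnla*, a resistin-like protein, passed an unadjusted p under 0.05. It was lower in males, with −0.75 (SE 0.21, edgeR adjusted p = 0.479), beside 3.75% of all genes lower and 3.39% higher. Calls this few are near the share over all genes, and nothing is read from them. The medians were 0.08 and −0.08.

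Sex was read from *Xist* in the YG8-800 experiment, where the labels give none. The paper states that males alone of this model were used, which the *Xist*-high libraries go against. The summed level of the 6 adipocyte genes was 14.3 and 13.5 CPM in the *Xist*-high YG8-800 libraries 1 and 3, against 182, 244 and 52.4 CPM in the *Xist*-high WT libraries 1, 2 and 4. It was 19.8 and 37.8 CPM in the *Xist*-low YG8-800 libraries 2 and 4, against 10.2 CPM in the *Xist*-low WT 3. Among *Xist*-high hearts those labelled YG8-800 lay below those labelled WT, and among *Xist*-low hearts above it, but these sets were made from the data and were not tested. In KIKO-700, where the labels give sex, the sums were 20.8, 16.9 and 25.1 CPM in males against 63.6, 59.9 and 65.9 CPM in females. With *Xist* as a covariate, an alternative added after seeing the data, the median over the 6 genes in YG8-800 against WT was −2.16. That fit takes the same difference for *Xist*-high and *Xist*-low hearts, so it cannot show the opposite directions given above.

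**Figure D5:**
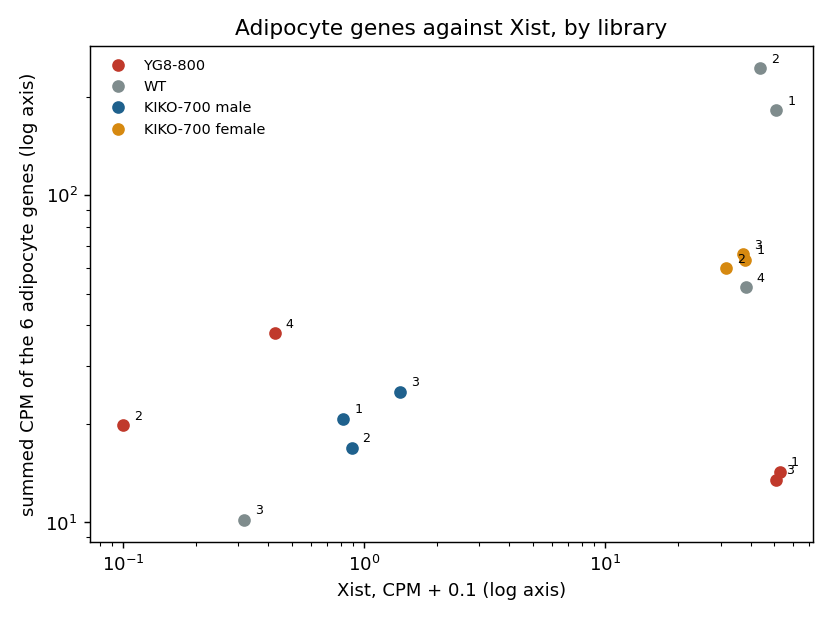
*Xist* (CPM plus 0.1) against the summed CPM of the 6 adipocyte genes, both on log axes, with 1 point per library. The *Xist*-high WT libraries lie at 52.4 to 244 CPM and the *Xist*-low WT 3 at 10.2 CPM.

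Markers of other cells were set against the mean of the 6 adipocyte genes in the same way. The B cell list of 4 genes had the highest r, 0.81, with a rho of 0.49 (n = 14). Its summed level ran from 0.218 to 1.03 CPM in YG8-800 and from 0 in WT 3 to 5.81 CPM in WT 2. It ran from 0.788 to 1.5 CPM in KIKO-700 males and from 0.762 to 2.02 CPM in KIKO-700 females. WT 2 thus stood out for B cell markers as for fat genes, and *Igkc*, an antibody light chain named after its values were seen, stood at 409 CPM there and between 10.2 and 35.3 CPM in the other WT libraries. The mesothelium list, of the sheet that covers the heart and its fat, had an r of 0.18, the ventricular list 0.28 and the erythroid list 0.52. Vascular smooth muscle stood at 0.38, Schwann cells and nerve at 0.15 and skeletal muscle at 0.07. Below 0 were the lists of sex (−0.46), endothelial cells (−0.23), macrophages (−0.21), fibroblasts (−0.20) and atrial cardiomyocytes (−0.11). The part of attached tissue, B cells or blood in the differences of the 7 genes was not tested.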

How the data were processed

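RNA of 14 hearts (4 labelled groups) was read at the 3′ end. The deposited values are whole-number counts per Ensembl gene, made by the authors and not normalized. Their processing notes name STAR 2.5.0a, HTSeq 0.6.1 and GRCm38.p6, while the methods name other tools for alignment and counting, and the 2 accounts were not reconciled. Of 54532 identifiers, 54409 (99.8%) matched GENCODE M21.

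CPM was computed after TMM scaling. Each comparison was fitted across all genes passing edgeR's filter on low counts, with its own libraries only, by the quasi-likelihood test (edgeR 4.0.16, limma 3.58.1, R 4.3.3) with Benjamini-Hochberg adjustment, and DESeq2 1.42.0 and limma-voom were alternatives. Log2 CPM used a prior count of 2, and likeness was computed over genes with a mean of at least 1 CPM. Intervals are exact at 95% and cover counting error only. The script was tested on simulated data. Each library is taken as 1 mouse. The p-values set the difference between groups against the spread between these libraries, which edgeR estimates with information shared across genes.

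The 7 genes and all gene lists were chosen with earlier results of these data known. Besides the 7, the text names the 15 genes most like the adipocyte genes, the 5 least like, those of the 10 most like *Cdo1* that are reported, list genes past the adjusted threshold, at most 4 genes per list taken by lowest p, and *Xist*, *Ucp1*, *Lep*, *Pparg* and *Fabp4*. Other names are said to be chosen after their values were seen. Other filters, scalings, fits, a replicate block and leaving out each library were tried. The result of the targeted gene and those of some other genes are not reported here.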

Additional observations from a re-analysis of the deposited data

How the results depend on the processing

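No log2 fold change of the 7 genes, nor their median, changed sign in an alternative run. In the KIKO-700 hearts alone, however, r to the adipocyte genes was −0.72 for *Cdo1* and −0.15 for *Adipoq*, against 0.76 and 0.90 over all 14 libraries. A log2 fold change or mean level counts as moved past 1 SD between replicates, and a count past 1.5 times. By this, 8 of the genes' log2 fold changes moved and 204 did not, 1 of their mean levels moved and 27 did not, and 40 of the remaining values, nearly all counts of genes, moved and 164 did not. Genes called in YG8-800 against WT numbered 0, with 107 without a filter on low counts, 7 in DESeq2 and 1 in one fit of all 14 libraries, and 0 to 146 on leaving out 1 library, the 146 without WT 4. In KIKO-700 males against females the 8 became 105 without the filter, 2 with at least 10 counts in every library, 18 in DESeq2, 0 in one fit of all 14 libraries, 0 with the adipocyte level as a covariate, and 4 to 864 on leaving out 1 library, the 864 without male 1. That covariate, the mean log2 CPM of the 6 genes, was 0.630 to 1.25 in males and 2.37 to 2.76 in females. It parts the sexes, and the calls lost with it include *Xist* and the Y-linked genes, so it cannot tell fat from sex. Called genes among the other adipocyte genes, 0 in both, were 3 in YG8-800 and 3 in KIKO-700 without the filter, and 0 to 5 in KIKO-700 on leaving out 1 library. The cysteine and taurine genes called in KIKO-700, 0, were 1 without the filter and 0 to 2 on leaving out 1 library. The median over the 6 adipocyte genes in YG8-800 against WT was −0.72 without WT 1 and WT 2 together, chosen after seeing the data, and −2.86 to −1.66 on leaving out 1 library; in KIKO-700 it was −1.89 to −1.49. The median likeness of the 6, 0.88, was 0.35 in KIKO-700 hearts only. The cause of these changes was not tested. With library size alone in YG8-800 against WT, 79.8% of the calls at an unadjusted p under 0.05 were lower, against 49.7% after TMM, 33.4% in limma-voom and 30.9% under the replicate block, and the all-gene median was −0.21.

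The labels do not say whether replicate numbers pair the libraries. The correlations of same-numbered deviations were −0.226, 0.253, −0.0308 and 0.132 in the YG8-800 experiment and −0.164, −0.0379 and −0.193 in KIKO-700. No differently numbered libraries were set beside them, so they do not settle whether the numbers pair. With the number as a replicate block, 0 genes were called in YG8-800 against WT and 6 in KIKO-700, and the medians over the 6 genes were −2.005 and −1.77. Low counts limit *Retn*, *Plin1*, *Cidec* and *Lep*. The labels of the YG8-800 experiment, which the check of the targeted gene went against, limit what its directions can be taken to mean.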
